A study of Rattus norvegicus with 12 samples.

Results

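Mitosis and spindle genes of rat cardiac fibroblasts were followed across 4 culture groups: 38 genes, chosen by symbol from the 32545 genes of the count table. They encode mitotic kinases and cyclins (Cdk1, Ccna2, Ccnb1, Plk1, Aurka, Nek2, Melk), the chromosomal passenger complex (Aurkb, Birc5, Cdca8, Incenp), the spindle checkpoint (Bub1, Bub1b, Ttk, Mad2l1), anaphase control (Cdc20, Ube2c, Pttg1), centromere and kinetochore proteins (Cenpa, Cenpe, Cenpf, Ndc80, Nuf2, Spc24, Spc25, Knstrn), spindle motors and assembly factors (Kif11, Kif2c, Tpx2, Hmmr), central spindle and cytokinesis proteins (Kif20a, Kif23, Prc1, Anln, Ect2, Racgap1), and chromosome structure or proliferation proteins (Top2a, Mki67). All 38 were found, and all 38 passed the filter on low counts that left 14399 genes tested. The lowest count of any of them in any library was 52, for Cenpa in a GS library.

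RNA sequencing covered 3 biological replicates in each group. RCF are parental untreated rat cardiac fibroblasts of WT genotype, the control group. GS cells are such fibroblasts, labelled immortalized, with viral overexpression of the transcription factor genes Sall4 and Gata4, and were left undifferentiated and non treated. For GS_diff1, GS cells were moved to CMM medium (cardiomyocyte differentiation), and for GS_diff2 to the same medium plus EGM2 solution (cardiomyocyte/endothelial differentiation). All GS, GS_diff1 and GS_diff2 cultures thus carry the virally expressed genes; the protocol field names the viral overexpression for the RCF libraries as well. Neither the animals' strain, age and sex, nor whether GS is 1 clone, nor the promoter of the viral genes, nor the time in each medium is given in the sources used here. No GS culture matched to the differentiating ones in time or density is named, so the media cannot be told apart from culture time or density.

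Mitosis is driven by Cdk1 bound to A- and B-type cyclins, with Plk1 and the Aurora kinases acting beside it. Kinetochores assemble on centromeric chromatin that carries the histone variant Cenpa and hold the spindle microtubules, while the checkpoint delays anaphase until all chromosomes are attached. Cdc20 then turns on the anaphase-promoting complex, cyclin B and securin are destroyed, and the central spindle and the contractile ring divide the cell. Messenger RNA of most of these genes accumulates in G2 and mitosis and is low in resting cells. In bulk RNA, fewer dividing cells and less of such RNA per dividing cell cannot be told apart.

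The libraries held 16255682 to 23117864 counts and 16044 to 16707 detected genes. Sall4 was at 0 in the RCF libraries and averaged 246 CPM (counts per 1000000, scaled) in GS, 225 in GS_diff1 and 69.6 in GS_diff2, and Gata4 averaged 206, 595, 495 and 285 CPM in RCF, GS, GS_diff1 and GS_diff2. Summed fibroblast markers stood between 51350 and 77306 CPM in every library, but single markers differed. Of the 16, 6 were called higher and 7 lower in GS than in RCF, where 35% and 36.3% of all tested genes were. Tcf21 averaged 18.5, 0.40, 0.083 and 0 CPM in RCF, GS, GS_diff1 and GS_diff2, and Dcn 32.8, 1.00, 0.070 and 0.42. Pdgfrb averaged 905, 1097, 208 and 91.4 CPM in that order, and Vim 5067, 4908, 4747 and 5644. The 13 leukocyte markers summed to 112 to 117 CPM in RCF, 24.3 to 28.0 in GS, 17.3 to 18.9 in GS_diff1 and 32.7 to 35.04 with EGM2; of them Ptprc and Adgre1 went from 1.77 and 14.3 CPM in RCF to 0 in GS, while Cd14 went from 17.3 to 23.2 CPM and stood at 14.1 and 29.4 CPM in GS_diff1 and GS_diff2. The 9 endothelial markers in the table summed to between 28.3 and 43.7 CPM in every library, most of it Tek (12.2 to 16.1 CPM by group) and Egfl7 (12.8 to 21.3 CPM); Emcn was at 0 in every group and Erg averaged 0, 1.51, 6.07 and 0.32 CPM in RCF, GS, GS_diff1 and GS_diff2. Smooth muscle markers summed to 797 to 816 CPM in RCF, 605 to 637 in GS, 2516 to 2565 in GS_diff1 and 399 to 405 with EGM2, and Acta2 among them averaged 198, 88.4, 961 and 9.84 CPM. Myl2, a cardiomyocyte marker, was at 0 in every group. The summed cardiomyocyte markers were 16.5 to 18.3 CPM in RCF and 85.7 to 95.7 in GS, against 179 to 190 with CMM medium alone and 106 to 115 with EGM2. Few genes carried these sums. Mybpc3 averaged 0, 16.1, 95.6 and 25.1 CPM in RCF, GS, GS_diff1 and GS_diff2, Myl3 0.016, 53.6, 55.7 and 39.0, and Nppb 0.65, 16.7, 15.6 and 7.80. Tnnt2 averaged 15.1, 1.96, 7.66 and 34.1 CPM in that order, and Myh6 0.079, 0.36, 0.76 and 0.26. Mitochondrially encoded genes took 2.18 to 2.26% of counts in RCF, 0.242 to 0.246% in GS, 1.49 to 1.70% in GS_diff1 and 1.79 to 1.86% in GS_diff2. These marker and mitochondrial shares move with the groups, and their part in the results was not tested.

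The promoters of these genes share sequence elements that the choice by symbol did not use. Genes of G2 and mitosis often carry a cell cycle genes homology region (CHR), an element bound by the MuvB complexes together with B-Myb or FoxM1, and CCAAT boxes, which bind NF-Y. RefSeq promoter sequences (GRCr8, 250 bases before to 50 after the annotated start) matched 32 of the 38 genes; Ccna2, Aurkb, Incenp, Ube2c, Racgap1 and Tpx2 had no entry. The CHR was searched on both strands in the forms TTTGAA and TTTAAA only, and other forms were not searched. TTTGAA reads as TTCAAA when it lies on the other strand, while the form TTTAAA reads alike on both. The CCAAT box was searched on both strands too, and reads as ATTGG when it lies on the other. Shown are the 150 bases before the start, 5′ to 3′ in the direction of the gene, with the CHR and CCAAT matches in capitals. Ccnb1 and Plk1 stand for the cyclin and kinase core, Kif20a, Pttg1 and Cenpa are among the genes with the largest differences below, Kif11 had the smallest rise in GS_diff2 over GS, and Melk is the gene with no match:
Ccnb1: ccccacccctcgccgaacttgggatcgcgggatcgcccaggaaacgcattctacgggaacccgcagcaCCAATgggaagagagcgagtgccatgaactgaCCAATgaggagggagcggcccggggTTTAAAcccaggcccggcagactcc
Plk1: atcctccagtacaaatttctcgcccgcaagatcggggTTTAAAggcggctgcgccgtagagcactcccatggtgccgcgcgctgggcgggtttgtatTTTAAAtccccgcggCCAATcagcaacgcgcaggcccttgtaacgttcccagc
Kif20a: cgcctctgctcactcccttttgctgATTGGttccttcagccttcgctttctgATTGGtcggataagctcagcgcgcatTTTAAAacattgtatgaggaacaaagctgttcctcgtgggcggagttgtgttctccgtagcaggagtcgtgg
Pttg1: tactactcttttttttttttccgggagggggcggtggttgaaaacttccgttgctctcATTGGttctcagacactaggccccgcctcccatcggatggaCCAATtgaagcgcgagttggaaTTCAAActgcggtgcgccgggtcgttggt
Cenpa: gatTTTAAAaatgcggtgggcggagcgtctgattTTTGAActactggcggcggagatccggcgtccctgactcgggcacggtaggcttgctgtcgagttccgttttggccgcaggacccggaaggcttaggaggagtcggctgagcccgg
Kif11: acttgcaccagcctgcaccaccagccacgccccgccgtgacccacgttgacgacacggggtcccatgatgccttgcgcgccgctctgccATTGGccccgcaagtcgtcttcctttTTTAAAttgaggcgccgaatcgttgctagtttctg
Melk: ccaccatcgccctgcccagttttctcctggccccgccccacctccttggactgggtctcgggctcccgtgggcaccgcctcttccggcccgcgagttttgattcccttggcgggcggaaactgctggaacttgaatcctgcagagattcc

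These stretches lie on GRCr8 at chr2:33655226-33655375, minus strand, for Ccnb1; chr1:186147508-186147657, plus strand, for Plk1; chr18:26504272-26504421, plus strand, for Kif20a; chr10:28406327-28406476, minus strand, for Pttg1; chr6:31431553-31431702, minus strand, for Cenpa; chr1:244536717-244536866, plus strand, for Kif11; and chr5:63336001-63336150, plus strand, for Melk. In Ccnb1 the CHR match begins at base -25 from the start, with CCAAT boxes at -50 and -82. Kif11 has the same arrangement with a single box, a CHR match at -35 and a CCAAT match at -61. In Cenpa the CHR matches begin at -116 and -147 and its CCAAT matches, at -208 and -242, lie farther out than the bases shown.

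A CHR match was present in 29 of the 32 promoters (90.6%) and in 27.9% of the 27457 rat promoters of the same length in the RefSeq table. Restricted to matches that start within 60 bases of the transcription start, it was present in 24 (75%), against 9.55% of all promoters. At least 1 CCAAT box was present in 22 (68.8%, against 37.7%) and at least 2 in 17 (53.1%, against 11.3%). Both elements occurred in 20 promoters (62.5%, against 11.1%). Neither occurred, in the forms searched, in 1, that of Melk (3.12%, against 45.5%). The 39 CHR matches had a median first base of -32 and the 52 CCAAT matches one of -95.5, so the boxes mostly lay upstream of the CHR; in 2 promoters a CHR and a CCAAT match shared bases. A match of letters is a description and does not show that a factor was bound. Where a symbol had several RefSeq entries, the first listed was used, and 6012 others were left out. Whether each annotated start is a true transcription start was not checked.

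**Figure D1:**
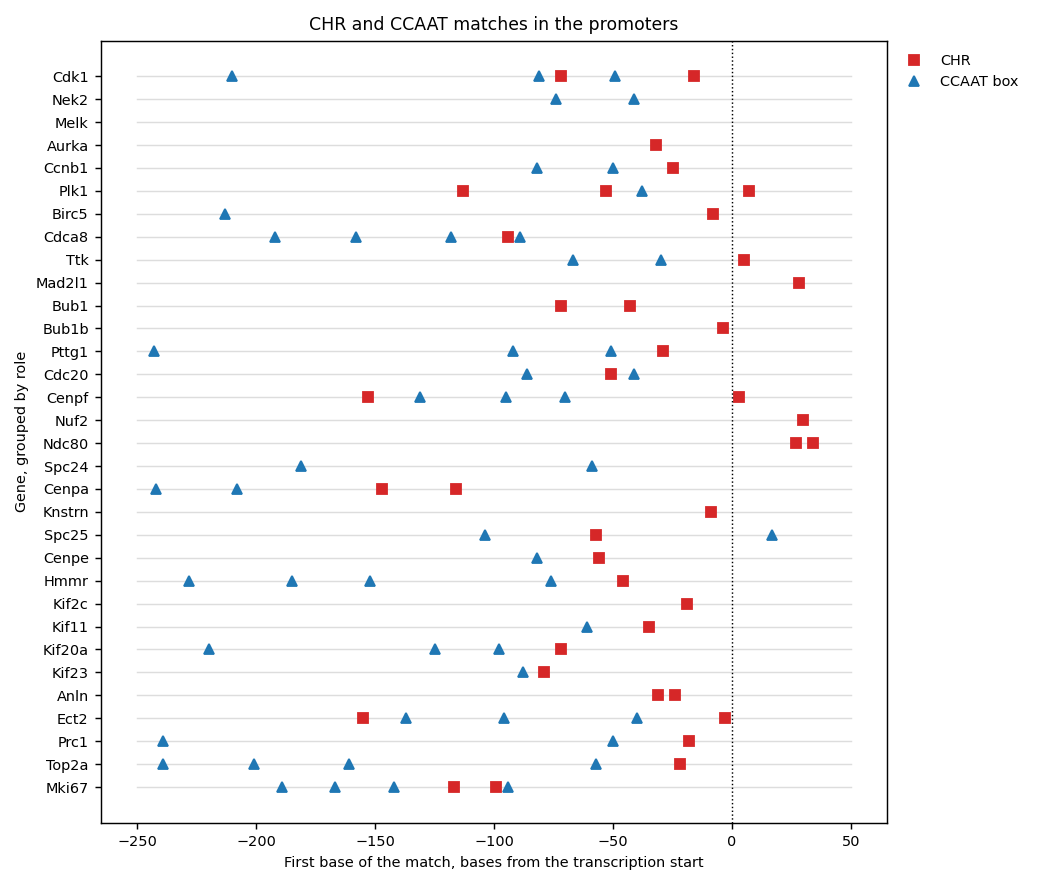
Each line is 1 of the 32 promoters, and each mark the first base of a match, in bases from the annotated transcription start (dotted line): squares are CHR matches and triangles CCAAT matches. CHR marks gather near the start, with a median of -32, and CCAAT marks farther upstream, with a median of -95.5; the line for Melk is empty.

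The summed level of the mitosis genes was lowest in GS, a little higher in RCF and well above both in the differentiation media. Their summed level was 1192 ± 12.3 CPM in RCF (SD, n = 3), 1102 ± 8.80 in GS, 3213 ± 79.1 in GS_diff1 and 4437 ± 58.4 in GS_diff2. The libraries ranged from 1182 to 1206 CPM, from 1093 to 1110, from 3136 to 3294 and from 4374 to 4489 CPM in the same order, so no group overlapped another. The same genes took 0.122% of all counts in RCF and 0.106% in GS, against 0.321% and 0.451% in GS_diff1 and GS_diff2.

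The order GS_diff2, GS_diff1, RCF, GS from highest to lowest group mean, taken without regard to any test, was shared by 24 genes. Another 8 had RCF in place of GS at the bottom, 4 were highest in GS_diff1 and lowest in RCF, and 2 were highest in GS_diff1 and lowest in GS. Per deposited gene length (RPKM, CPM per kilobase), the median gene stood at a level of 10.3 in RCF and 8.69 in GS, then 22.5 in GS_diff1 and 32.3 in GS_diff2. Cdk1, the kinase that drives entry into mitosis, had the highest RPKM in RCF (35.3), GS_diff1 (90.5) and GS_diff2 (131), while Cdc20, the activator of the anaphase-promoting complex, was highest in GS (36.6). The lowest RPKM belonged to Melk in RCF (3.36) and GS_diff2 (12.4), to Cenpa in GS (1.498) and to Cenpf in GS_diff1 (7.82). Replicates were close: the median coefficient of variation of a gene was 4.80% in RCF and 7.30% in GS, then 4.88% in GS_diff1 and 3.75% in GS_diff2.

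**Figure D2:**
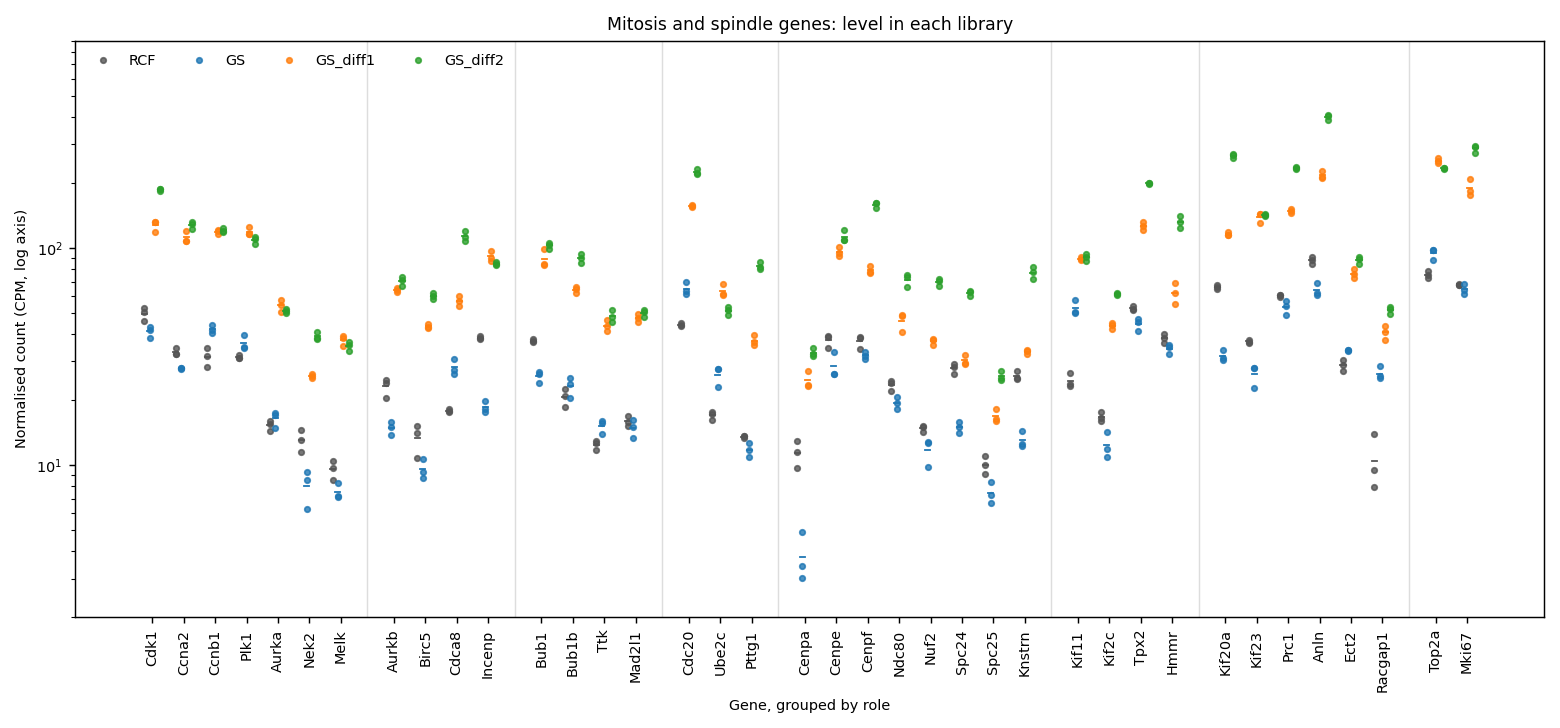
Scaled level (CPM) of the 38 mitosis and spindle genes in each of the 12 libraries, grouped by role, on a log axis; each point is a library and each dash a group mean. The GS_diff1 and GS_diff2 libraries carry the higher levels, with summed levels of 3213 and 4437 CPM against 1192 in RCF and 1102 in GS.

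GS cells compared with their parental fibroblasts showed a mixed pattern: 11 genes were higher in GS, 23 lower and 4 did not pass the test (edgeR's quasi-likelihood test, Benjamini-Hochberg adjusted p under 0.05). All 8 centromere and kinetochore genes fell, as did 3 of the 4 passenger complex genes, while Racgap1, Kif11, Cdca8, Ube2c and Cdc20 rose. Of all tested genes, 35% were called higher and 36.3% lower, and 71.3% either way. Differences of at least 2-fold were few, 2 higher and 3 lower, where 14.2% and 11.7% of all tested genes reached that size. The libraries of the groups did not overlap for 34 of the 38 genes, against 74.2% of all tested genes, and the median log2 difference was -0.24, against -0.03 over all tested genes.

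Among the genes lower in GS, Cenpa, the histone H3 variant that marks the centromere (chr6:27072166-27080856, minus strand, in the table's coordinates, Rnor_6.0), had the largest change. Its level was 9.71, 11.5 and 12.96 CPM in the RCF libraries and 4.91, 3.01 and 3.41 CPM in the GS libraries. Every GS library lay below every RCF library, a 2.96-fold lower level (log2 difference -1.57 ± 0.14 SE, adjusted p = 3.45e-10). Incenp, the scaffold of the passenger complex that carries Aurora B, stood at 38.4, 38.1 and 39.5 CPM in RCF and 18.2, 17.6 and 19.8 CPM in GS, 2.09-fold lower (log2 difference -1.06 ± 0.063, adjusted p = 2.24e-15). Kif20a, the kinesin that brings that complex to the central spindle, stood at 66.2, 64.7 and 67.5 CPM in RCF and 30.5, 31.1 and 33.8 CPM in GS, 2.08-fold lower (log2 difference -1.06 ± 0.046, adjusted p = 1.15e-18). For both, the GS libraries lay far below the RCF range, which spanned only a few CPM. Of the other kinetochore genes, Knstrn, a spindle-binding kinetochore protein, fell 1.97-fold and Spc24, a subunit of the Ndc80 complex, 1.86-fold. The remaining 5, Spc25, Cenpe, Nuf2, Ndc80 and Cenpf, fell by between 1.16- and 1.35-fold.

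Among the genes higher in GS, Racgap1, the GTPase-activating subunit of centralspindlin, stood at 9.50, 7.90 and 13.9 CPM in RCF and 25.04, 28.5 and 25.7 CPM in GS, a 2.52-fold higher level (log2 difference 1.33 ± 0.16, adjusted p = 7.87e-06). The groups did not overlap, though the RCF libraries spread widely. Kif11, the motor that pushes spindle poles apart, stood at 23.1, 26.7 and 23.7 CPM in RCF and 50.4, 57.7 and 50.8 CPM in GS, 2.16-fold higher (log2 difference 1.11 ± 0.064, adjusted p = 8.64e-16). Anaphase control also held risers: Cdc20 stood at 44.1, 43.8 and 45.0 CPM in RCF and 63.7, 61.2 and 70.0 CPM in GS, 1.46-fold higher (adjusted p = 9.22e-12), and Ube2c, the ubiquitin-conjugating enzyme of the anaphase-promoting complex, was 1.53-fold higher (adjusted p = 4.45e-08). Ccnb1, cyclin B1, was 1.34-fold higher and Top2a, the topoisomerase that untangles sister chromatids, 1.26-fold. Ttk, Ect2, Plk1 and Bub1b rose by 1.22-, 1.17-, 1.16- and 1.13-fold.

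Some complexes held genes that moved in opposite directions, and others did not: the 4 genes of the Ndc80 complex (Ndc80, Nuf2, Spc24 and Spc25) all fell. In the passenger complex, Cdca8 stood at 17.6, 18.1 and 17.7 CPM in RCF and 30.8, 26.4 and 27.5 CPM in GS, 1.59-fold higher, while Aurkb was 1.55-fold, Birc5 1.40-fold and Incenp 2.09-fold lower. In centralspindlin, the kinesin Kif23 was 1.42-fold lower and its partner Racgap1 higher. Per length, the ratio of the Racgap1 to the Kif23 level was 0.247 to 0.430 in the RCF libraries, 1.03 to 1.44 in GS, 0.300 to 0.361 in GS_diff1 and 0.397 to 0.433 in GS_diff2; the GS ratios stood apart from those of the other 3 groups. The ratio of the Cdca8 to the Incenp level was 1.06 to 1.12 in RCF, 3.26 to 3.99 in GS and 1.37 to 1.57 in GS_diff1, and at 3.00 to 3.38 the GS_diff2 libraries overlapped those of GS. Both pairs were chosen after their values were seen.

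The 4 genes that did not pass the test were Mki67, the Ki-67 proliferation antigen, Aurka, Aurora A kinase, Mad2l1, a checkpoint protein, and Hmmr, a spindle assembly factor. Mki67 stood at 68.5, 67.8 and 67.7 CPM in RCF and 64.2, 68.3 and 61.6 CPM in GS (log2 difference -0.07 ± 0.054, adjusted p = 0.252). Aurka stood at 15.4, 14.4 and 15.9 CPM against 17.02, 14.9 and 17.4 CPM (log2 difference 0.11 ± 0.081, adjusted p = 0.232), and Mad2l1 at 16.8, 15.2 and 15.8 CPM against 13.3, 14.9 and 16.1 CPM (log2 difference -0.12 ± 0.083, adjusted p = 0.199). In these 3 the libraries of the groups overlapped. Some calls near the threshold turned on single libraries or on the fit. That of Bub1b (log2 difference 0.18, adjusted p = 0.0423) was lost without RCF replicate 1 (0.19, adjusted p = 0.0672), RCF replicate 2 (0.11, adjusted p = 0.243), GS replicate 1 (0.16, adjusted p = 0.117) or GS replicate 2 (0.12, adjusted p = 0.222) with a replicate block (0.18, adjusted p = 0.0537), with limma-voom (0.18, adjusted p = 0.0786) and with only the RCF and GS libraries fitted (0.21, adjusted p = 0.0623). That of Pttg1 (log2 difference -0.21, adjusted p = 0.0218) was lost without RCF replicate 1 (-0.20, adjusted p = 0.0515) or GS replicate 2 (-0.16, adjusted p = 0.105), with limma-voom (-0.21, adjusted p = 0.0822) and with only those libraries fitted (-0.18, adjusted p = 0.172), where Melk also lost its call (-0.31, adjusted p = 0.0596). Hmmr (-0.16, adjusted p = 0.056) passed without RCF replicate 2 (-0.19, adjusted p = 0.0404) and with no filter on low counts (-0.15, adjusted p = 0.0326). Scaled by library totals alone, which lowers every GS value against RCF, Bub1b (0.079, adjusted p = 0.369), Plk1 (0.12, adjusted p = 0.0796) and Ect2 (0.12, adjusted p = 0.0699) lost their calls, and Hmmr (-0.26, adjusted p = 0.00257), Mad2l1 (-0.22, adjusted p = 0.0197) and Mki67 (-0.17, adjusted p = 0.00768) passed as lower.

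**Figure D3:**
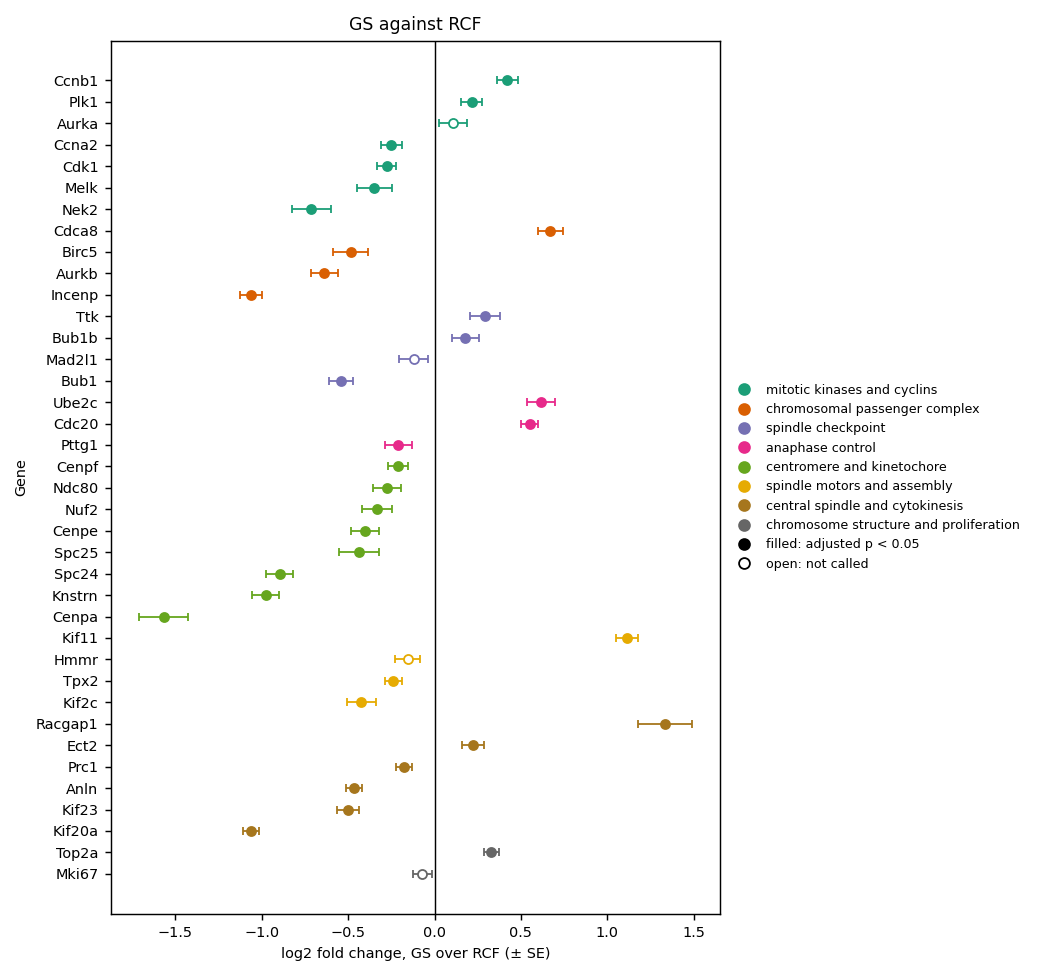
Log2 difference of GS from RCF for each of the 38 genes, grouped by role, with bars for 1 standard error of the fitted value; filled points passed the test. Cenpa lies lowest at -1.57 and Racgap1 highest at 1.33, and all 8 centromere and kinetochore genes lie below 0.

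In CMM medium every mitosis gene rose: 38 of 38 were called higher in GS_diff1 than in GS and 0 lower, where 32% and 32.3% of all tested genes were, and 35 of them by at least 2-fold, where 8.38% of all tested genes were. The median log2 difference was 1.59, against -0.002 over all tested genes. Folds ran from 1.55 to 6.41.

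The largest change was in Cenpa, at 23.4, 27.1 and 23.2 CPM in GS_diff1 against 4.91, 3.01 and 3.41 CPM in GS, 6.41-fold higher (log2 difference 2.68 ± 0.14, adjusted p = 5.40e-15). Kif23, the kinesin of centralspindlin, followed at 143, 144 and 130.5 CPM against 27.8, 22.6 and 28.0 CPM, 5.31-fold higher (log2 difference 2.41 ± 0.060, adjusted p = 1.57e-24). Melk, a kinase abundant in dividing cells, stood at 38.6, 39.2 and 35.2 CPM against 7.16, 7.17 and 8.30 CPM, 5.01-fold higher (log2 difference 2.33 ± 0.097, adjusted p = 4.81e-19). In each of the 3 the lowest GS_diff1 library lay far above the highest GS library. Incenp rose 4.94-fold, to 90.1, 97.0 and 87.0 CPM, and Birc5, survivin, 4.56-fold, to 44.4, 43.2 and 43.0 CPM. Of the other passenger genes, Aurkb rose 4.32-fold and Cdca8 2.02-fold.

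The smallest rises were those of Racgap1, Kif11 and Hmmr. Racgap1 stood at 43.7, 37.6 and 41.2 CPM against 25.04, 28.5 and 25.7 CPM in GS (log2 difference 0.63 ± 0.14, 1.55-fold, adjusted p = 0.00193). Kif11 stood at 89.1, 87.7 and 90.4 CPM against 50.4, 57.7 and 50.8 CPM (log2 difference 0.75 ± 0.058, 1.68-fold, adjusted p = 1.78e-12), and Hmmr at 69.0, 62.0 and 55.1 CPM against 35.7, 34.9 and 32.5 CPM (log2 difference 0.85 ± 0.070, 1.804-fold, adjusted p = 6.59e-11). Here too no GS_diff1 library fell within the GS range.

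With EGM2 solution added, all 38 genes were again higher than in GS and 0 lower, where 33.3% and 33.7% of all tested genes were, and 35 by at least 2-fold, where 11.3% of all tested genes were. The median log2 difference was 2.09, against -0.0002 over all tested genes, and folds ran from 1.71 to 8.59. Over 4-fold rises numbered 22, against 7 in GS_diff1; both comparisons share the GS libraries.

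Cenpa stood at 34.6, 32.4 and 31.9 CPM in GS_diff2, 8.59-fold over GS (log2 difference 3.10 ± 0.14, adjusted p = 1.82e-16). Kif20a stood at 268, 259 and 270.3 CPM, 8.37-fold over GS (log2 difference 3.07 ± 0.045, adjusted p = 1.39e-30). Pttg1, securin, which holds separase in check until anaphase, stood at 80.3, 81.6 and 85.9 CPM against 11.7, 10.9 and 12.6 CPM in GS, 7.05-fold higher (log2 difference 2.82 ± 0.074, adjusted p = 2.74e-24). For all 3 the GS_diff2 libraries lay far above those of GS. Anln, the anillin scaffold of the contractile ring, reached 390.1, 404 and 412 CPM (6.31-fold) and Birc5 60.2, 58.4 and 62.2 CPM (6.30-fold). Kif11 rose 1.71-fold, Racgap1 1.96-fold and Ube2c 1.97-fold, the only 3 under 2-fold.

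**Figure D4:**
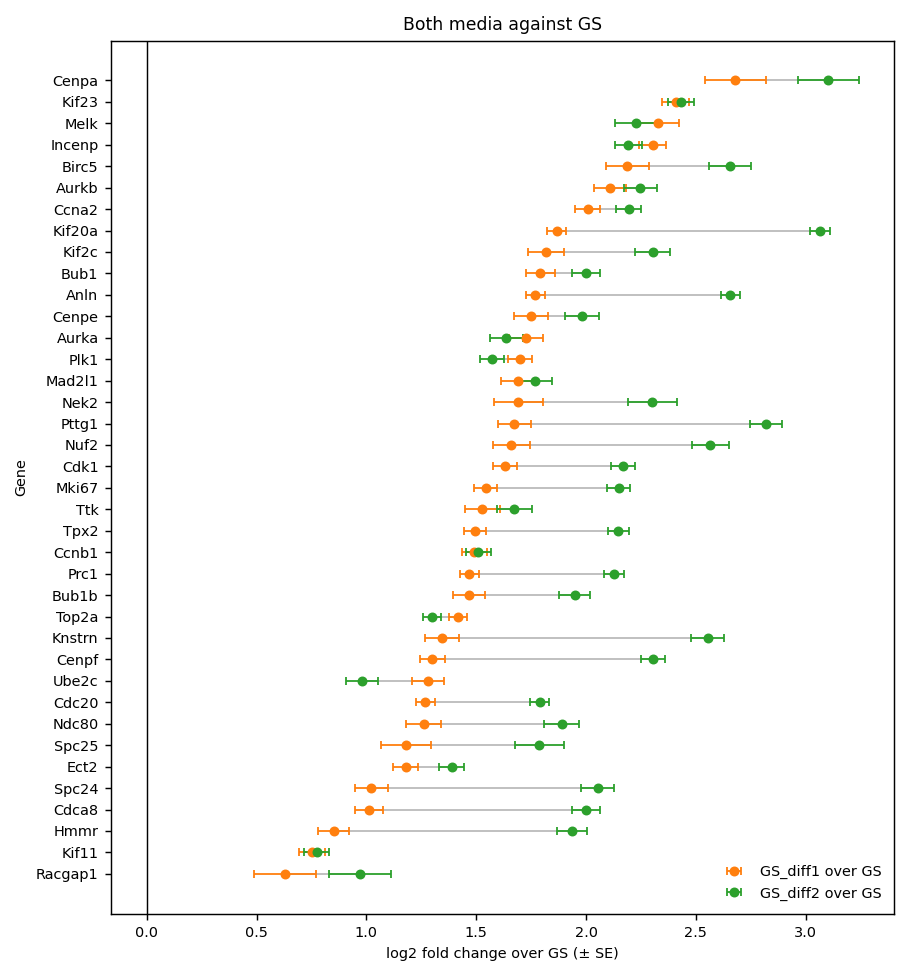
Log2 difference from GS for each of the 38 genes in GS_diff1 and in GS_diff2, with bars for 1 standard error, joined by a line for each gene. All points lie above 0, and the GS_diff2 point is the higher of each pair in 32 of the 38 genes.

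Against the parental fibroblasts, 37 of 38 genes were higher in GS_diff1, where 38% of all tested genes were, and 38 of 38 in GS_diff2, where 37.1% were. In GS_diff2 all 38 exceeded RCF by at least 2-fold, against 16.6% of all tested genes, with a median log2 difference of 1.88. The gene not called in GS_diff1 was Spc24, at 29.3, 29.6 and 32.3 CPM against 26.3, 29.1 and 28.2 CPM in RCF (log2 difference 0.13, adjusted p = 0.109). These comparisons share the RCF libraries with that of GS and the differentiated libraries with those above.

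Between the media most of the genes differed: 26 were higher in GS_diff2 than in GS_diff1 and 3 lower, where 32.1% and 31.5% of all tested genes were. Another 9 did not pass the test. All 8 centromere and kinetochore genes were higher with EGM2, and 6 genes by at least 2-fold, where 10.7% of all tested genes were. The median log2 difference was 0.47, against 0.004 over all tested genes.

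Knstrn led, at 33.5, 32.4 and 33.8 CPM in GS_diff1 and 81.4, 77.3 and 71.8 CPM in GS_diff2, 2.31-fold higher (log2 difference 1.21 ± 0.069, adjusted p = 1.09e-15). Kif20a stood at 118, 114 and 114 CPM in GS_diff1 and 268, 259 and 270.3 CPM in GS_diff2, 2.30-fold higher (log2 difference 1.20 ± 0.039, adjusted p = 1.06e-21). Pttg1 went from 35.9, 39.5 and 36.7 CPM to 80.3, 81.6 and 85.9 CPM, 2.21-fold higher (log2 difference 1.14 ± 0.065, adjusted p = 1.11e-15). In each the GS_diff2 libraries stood more than the whole GS_diff1 range above it. Hmmr followed, at 69.0, 62.0 and 55.1 CPM in GS_diff1 and 124, 132 and 140 CPM in GS_diff2 (2.12-fold, adjusted p = 9.34e-14), with Spc24 at 29.3, 29.6 and 32.3 CPM and 62.8, 63.2 and 59.98 CPM (2.04-fold, adjusted p = 5.05e-14). Cenpf, a large kinetochore and nuclear matrix protein, was 2.01-fold higher, Cdca8 1.99-fold, Nuf2 1.88-fold and Anln 1.85-fold.

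A different set was lower with EGM2. Ube2c went from 60.6, 67.9 and 61.4 CPM in GS_diff1 to 51.8, 53.4 and 49.1 CPM in GS_diff2, 1.23-fold lower (log2 difference -0.30 ± 0.069, adjusted p = 0.000376). Top2a went from 259, 251 and 247 CPM to 233, 231 and 232 CPM (log2 difference -0.12 ± 0.039, adjusted p = 0.00825). Plk1, the Polo-like kinase, went from 124, 116 and 116 CPM to 104, 109.6 and 112 CPM (log2 difference -0.13 ± 0.051, adjusted p = 0.0287). The groups did not overlap in any of the 3. The call of Plk1 was lost without GS_diff1 replicate 1 (-0.09, adjusted p = 0.153), GS_diff2 replicate 1 (-0.10, adjusted p = 0.144) or GS_diff2 replicate 2 (-0.13, adjusted p = 0.0521) and with library totals (-0.10, adjusted p = 0.0699).

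The smallest differences between the media were those of Ccnb1, Kif11 and Kif23. Ccnb1 stood at 116, 121 and 119 CPM in GS_diff1 and 123, 120.1 and 118 CPM in GS_diff2 (log2 difference 0.02 ± 0.051, adjusted p = 0.783). Kif11 stood at 89.1, 87.7 and 90.4 CPM and 86.8, 90.9 and 93.5 CPM (log2 difference 0.02 ± 0.056, adjusted p = 0.764), and Kif23 at 143, 144 and 130.5 CPM and 141, 140.1 and 143 CPM (log2 difference 0.02 ± 0.052, adjusted p = 0.704). Their libraries overlapped. Racgap1 (1.27-fold higher, log2 difference 0.34, adjusted p = 0.0448) lost its call in 8 of 13 alternatives and kept it in the others. It was lost when any 1 of the 6 libraries of these groups was left out (log2 difference 0.27 to 0.39, adjusted p = 0.0568 to 0.157), with a replicate block (0.34, adjusted p = 0.0635) and with no filter on low counts (0.33, adjusted p = 0.0918). The Racgap1 libraries did not overlap, at 37.6 to 43.7 CPM in GS_diff1 and 49.5 to 53.4 CPM in GS_diff2. Calls were gained by Aurkb (0.14, adjusted p = 0.0659) without GS_diff2 replicate 1 (0.17, adjusted p = 0.0473), Ttk (0.15, adjusted p = 0.0847) without GS_diff1 replicate 1 (0.19, adjusted p = 0.0498) and Incenp (-0.11, adjusted p = 0.0657) without GS_diff1 replicate 3 (-0.15, adjusted p = 0.0319).

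Reads of overlapping genes may be shared. Ccna2, cyclin A2 (chr2:123275881-123282214, minus strand), is overlapped along all its 6334 bases by Exosc9 on the opposite strand, and Kif20a (chr18:27424328-27432814, plus strand) over 1910 bases by Cdc23. Whether the counting used strand is not given in the sources used here. Exosc9 was 1.76- and 1.81-fold higher than GS in GS_diff1 and GS_diff2 and Cdc23 1.45- and 1.55-fold, smaller rises than those of Ccna2 (4.02- and 4.58-fold) and Kif20a (3.64- and 8.37-fold).

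Other genes of mitosis, a list of 102 symbols of which 96 rows were tested, were nearly all higher in the media than in GS. In GS against RCF, 36 were higher and 27 lower, with a median log2 difference of 0.0003, beside 35% and 36.3% of all tested genes. Kif15, a spindle kinesin that works beside Kif11, rose from 9.48 ± 0.54 to 71.2 ± 4.38 CPM (7.51-fold), Zwint, which binds the kinetochore scaffold, from 80.4 ± 2.77 to 360 ± 19.0 CPM (4.48-fold), and Fam64a (Pimreg) fell from 15.4 ± 0.92 to 2.18 ± 0.18 CPM (7.09-fold). In GS_diff1, 91 were higher than in GS and 2 lower (median 1.31), and in GS_diff2, 90 were higher and 4 lower (median 1.51), where 32% to 33.7% of all tested genes were called in each direction. Fam64a rose to 17.4 ± 0.95 CPM in GS_diff1 and 74.9 ± 1.91 CPM in GS_diff2, which is 7.99- and 34.5-fold over GS.

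Between the media, 50 of the 96 were higher with EGM2 and 15 lower, beside 32.1% and 31.5% of all tested genes. Ckap2, a spindle pole protein, went from 81.8 ± 4.66 to 306 ± 2.02 CPM (3.73-fold higher), and Ska3, a kinetochore protein, from 147 ± 1.88 to 43.6 ± 2.45 CPM (3.36-fold lower).

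Regulators of mitotic gene transcription were called both ways in each comparison. Of 24 tested, 11 were higher and 6 lower in GS against RCF, where 35% and 36.3% of all tested genes were. Against GS, 12 were higher and 4 lower in GS_diff1 (32% and 32.3% of all tested genes), and 11 and 7 in GS_diff2 (33.3% and 33.7%). Between the media, 7 were higher and 8 lower with EGM2, near the 32.1% and 31.5% of all tested genes. Foxm1, a transcription factor that acts through the CHR, averaged 19.3 CPM in RCF and 13.8 in GS, then 44.1 in GS_diff1 and 51.0 in GS_diff2, and Mybl2 (B-Myb), its partner, 15.2, 27.3, 104 and 87.7 CPM. Over GS, Foxm1 was 3.21-fold higher in GS_diff1 and 3.71-fold in GS_diff2, and Mybl2 3.80- and 3.21-fold. Mybl2 was also 1.79-fold higher in GS than in RCF, where the median mitosis gene was lower. E2f1, an activator of S phase genes, was 1.59-fold higher than GS in GS_diff1 and 3.12-fold in GS_diff2.

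Among growth arrest genes and cell cycle inhibitors, of 23 tested, 15 were called higher and 5 lower in GS against RCF (35% and 36.3% of all tested genes), 5 and 14 in GS_diff1 against GS (32% and 32.3%), and 9 and 14 in GS_diff2 against GS (33.3% and 33.7%). Cdkn1c (p57), a Cdk inhibitor, averaged 0.047 CPM in RCF and 214 in GS, then 137 in GS_diff1 and 121 in GS_diff2. Gas1, a growth arrest gene, fell from 113 ± 2.69 CPM in GS to 6.78 ± 1.56 in GS_diff1 and stood at 57.6 ± 0.36 in GS_diff2, and Gadd45a, a stress-induced arrest gene, fell 3.69- and 5.25-fold. Not all inhibitors fell: Cdkn1a (p21) averaged 166, 211, 209 and 347 CPM in RCF, GS, GS_diff1 and GS_diff2, and was 1.65-fold higher in GS_diff2 than in GS. Cdkn2a averaged 7.80, 10.99, 9.57 and 45.7 CPM, 4.18-fold higher in GS_diff2 than in GS.

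DNA replication genes were nearly all higher in the media than in GS. Of 45 tested, 28 were higher and 6 lower in GS against RCF, where 35% and 36.3% of all tested genes were. In GS_diff1 against GS, 44 were higher and 1 lower (median log2 difference 1.40), beside 32% and 32.3% of all tested genes. In GS_diff2 against GS, 43 were higher and 0 lower (median 1.27), beside 33.3% and 33.7%. Between the media, 16 were higher and 15 lower with EGM2 (median 0.006), near the 32.1% and 31.5% of all tested genes, beside 26 and 3 of the 38 mitosis genes (median 0.47); the difference between the lists was not tested. Tk1, thymidine kinase, rose 5.39-fold over GS in GS_diff1 and 6.31-fold in GS_diff2.

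**Figure D5:**
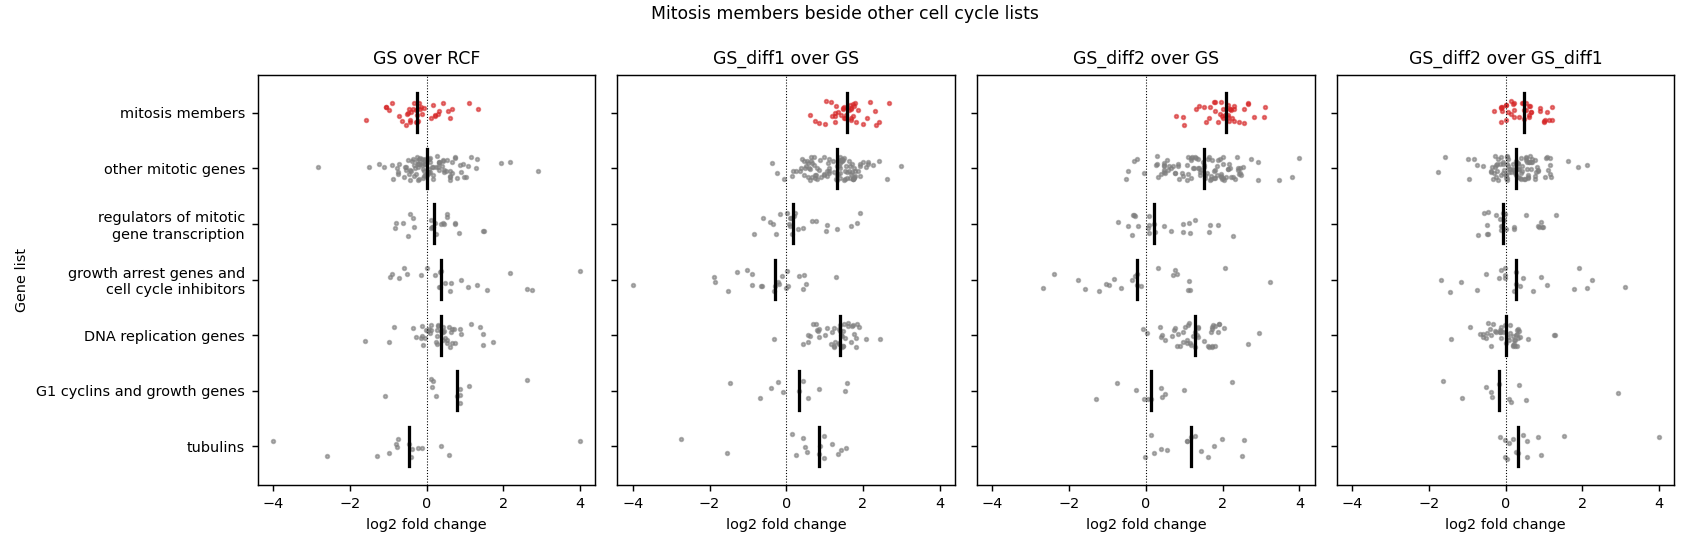
Log2 fold changes of the tested genes of each list in the main comparisons, 1 point for each gene, with the list median as a black bar; values beyond 4 in either direction are drawn at the edge. The mitosis genes lie above 0 in both media, with medians of 1.59 and 2.09, and around a median of -0.24 in GS against RCF.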

How the data were processed

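Per gene, the authors deposited raw read counts (whole numbers, not normalized) with Ensembl rat gene identifiers, symbols, coordinates and lengths. Total RNA was prepared with the RNeasy Mini kit and libraries with NuGEN's Ovation RNA-seq System v2, per the labels' protocols. The submitters' processing notes name Bowtie 0.12.2 and the builds mm8 and Rnor_6.0 without roles; coordinates are taken as those of the rat build. The counting program, annotation and strand setting: not given in the sources used here.

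Counts were tested with edgeR 4.0.16 (R 4.3.3): filterByExpr, TMM scaling, robust quasi-likelihood fit of all 12 libraries with a term per group, two-sided tests, and Benjamini-Hochberg adjustment over all 14399 tested genes at 0.05. CPM are TMM-scaled, and RPKM are CPM per kilobase of the table's gene length. Fold is the fitted fold change and its error the standard error from the F statistic. Replicates differed by more than sampling noise (chi-square per degree of freedom 4.44 to 7.57 over genes with at least 50 counts). The script was tested on data simulated for GS against RCF, with 50 genes changed at each of 4 sizes. It called 20% of the 1.25-fold and 70% of the 1.5-fold changes, so small differences were often missed there. Of 2-fold and 4-fold changes it called 98% and 100%, and 4% of its calls were false. Far fewer genes changed in the simulation than were called in the data (71.3%), which alters the adjusted p-values. These rates therefore need not hold for the data, where the share of small differences missed was not measured. Same-numbered libraries did not deviate together, so the fit has no block.

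The 38 genes and the other lists were chosen with earlier results of these data known. All 38 may be named; from each other list, up to 3 called genes per main comparison with the largest change, at least 1 CPM in the higher group and groups that do not overlap, plus Foxm1, Mybl2, E2f1, Rb1, Cdkn1a, Cdkn1c, Cdkn2a, Sall4 and Gata4; another gene of that rule is not reported here. Of 221 symbols on these lists 214 matched the table, 6 of them by an older name. Alternatives were library totals, DESeq2 1.42.0, its size factors in edgeR, limma-voom 3.58.1, no filter, only the groups compared, a replicate block, and leaving out each library.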

Additional observations from a re-analysis of the deposited data

How the results depend on the processing

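Over the 38 genes and 6 comparisons, 2920 of 2964 alternative values kept their direction and their side of the threshold, 27 lost the call, 15 gained one and 2 changed sign. Scaling by library totals moved the summed level to 1224 CPM in RCF, 1056.2 in GS and 4508.6 in GS_diff2, by more than the replicate spread, and gave 8 genes higher and 26 lower in GS against RCF; the cause was not tested. Between the media, Aurkb and Ttk gained a call with library totals and with limma-voom, Incenp with limma-voom, and Aurkb and Incenp with only those groups fitted. The sign changes concerned differences that were not called: Cdkn1a in GS_diff1 against GS (0.0525 with library totals, 0.0178 without GS replicate 1, 0.0234 without GS_diff1 replicate 1; -0.0227 to 0.0234 over left-out libraries), Cdkn2a in that comparison (0.1554 without GS replicate 2, range -0.376 to 0.1554), and between the media Kif23 (-0.0185 without GS_diff1 replicate 3, range to 0.0431) and Kif11 (-0.0031 without GS_diff2 replicate 3, range to 0.0501). The replicate block gave 10 higher and 23 lower genes in GS against RCF and 25 and 3 between the media, and changed 3 calls among 346 tested values of named genes: Bub1b in GS against RCF and, between the media, Racgap1 and Foxm1, of which Foxm1 gained one; the labels do not pair same-numbered libraries. With 3 libraries in a group, p-values measure the spread between these cultures only, and groups of 3 were not searched for outlying libraries.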

Other observations

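Tubulins, mainly the subunits of spindle and cytoplasmic microtubules, mostly rose with the mitosis genes in both media. The list also holds gamma-, delta- and epsilon-tubulin, and gamma-tubulin is on the list of other mitosis genes too. Of 15 tested, 3 were higher and 10 lower in GS than in RCF, where 35% and 36.3% of all tested genes were. Against GS, 11 were higher and 1 lower in GS_diff1 (32% and 32.3% of all tested genes), and 12 and 0 in GS_diff2 (33.3% and 33.7%). In GS_diff2 against GS_diff1, 10 were higher and 0 lower (32.1% and 31.5%). Tubb4b averaged 152 ± 0.80 CPM in GS (SD, n = 3), 449 ± 16.3 in GS_diff1 and 856 ± 14.2 in GS_diff2, 2.95- and 5.63-fold over GS. Tuba1b averaged 256 ± 3.34, 687 ± 15.3 and 1018 ± 11.4 CPM in the same groups.

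G1 cyclins and growth genes moved in both directions. Of 11 tested, 8 were higher and 1 lower in GS against RCF, where 35% and 36.3% of all tested genes were. Against GS, 6 were higher and 5 lower in GS_diff1 (32% and 32.3% of all tested genes), and 6 and 3 in GS_diff2 (33.3% and 33.7%). Ccnd1, cyclin D1, averaged 99.4 ± 1.33 CPM in RCF and 605 ± 15.0 in GS, then 377 ± 0.24 in GS_diff1 and 2866 ± 14.8 in GS_diff2, 7.60-fold higher in GS_diff2 than in GS_diff1. Myc averaged 67.5 ± 1.61 CPM in RCF and 144 ± 4.13 in GS, and fell 2.74-fold in GS_diff1 and 2.48-fold in GS_diff2. Cdc25a, the phosphatase that activates Cdks at the start of S phase, averaged 122 ± 3.58 CPM in GS_diff1 and 39.1 ± 1.19 in GS_diff2, 3.11-fold lower with EGM2.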
